A study of Mus musculus with 16 samples.

Results

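The histone methylation and deacetylation enzymes of mouse CFU-E cells were followed across both deposited experiments. They comprise the lysine demethylases (*Kdm*), the lysine methyltransferases (*Kmt*, *Setd* and *Ezh*), the zinc-dependent histone deacetylases (*Hdac*) and the sirtuins (*Sirt*). The members were taken by symbol alone, as every *Kdm*, *Kmt*, *Hdac* or *Sirt* symbol followed by a digit, every symbol beginning with *Setd*, and *Ezh1* and *Ezh2*. This gave 56 of the 15386 genes in the RNA-seq table and 55 of the 13490 genes in the m6A table.

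RNA-seq was done on CFU-E cells sorted from the bone marrow of control mice (n = 3) and on CFU-E Kit-lo cells labelled *Mettl3*-deficient (n = 3), and m6A IP (n = 2) and input (n = 2) libraries were made from control CFU-E cells. CFU-E cells are committed erythroid progenitors that carry the receptors Kit and CD71, and the Kit-lo subset was the part of the mutant CFU-E gate with very little Kit. The mutants were *Mettl3* fl/fl EpoR Cre/- mice, in which *EpoR-tdTomato-Cre* recombines in erythroid cells and in erythroblastic island macrophages, so the deletion was not limited to CFU-E cells. All mice were on a C57BL/6 background, of both sexes and 10 to 16 weeks old, and the genotype of the controls and the sex of the mice behind each library were not given in the sources used here. The groups of the RNA-seq therefore differed in genotype and in the Kit gate at once, and these cannot be told apart. The labels do not say that replicates came from separate animals, so the p-values measure the spread between these libraries, which may be technical.

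Chemical marks on histone tails are added by methyltransferases and removed by demethylases, while deacetylases and sirtuins take off acetyl groups and so favor compact chromatin. Methylation of H3K4 marks promoters and enhancers in use, that of H3K27 marks genes silenced by Polycomb, and that of H3K9 marks heterochromatin. Erythroid cells condense their nuclei before they expel them, a process that needs deacetylases and the H4K20 methyltransferase encoded by *Kmt5a*. Mettl3 is the catalytic subunit that writes m6A on mRNA, mostly near stop codons and in 3′ UTRs, and m6A affects how long an mRNA lasts.

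Counts totaled 17429262 to 21329242 per RNA-seq library and 19421059 to 37142742 per m6A library. *Mettl3* itself was at 115, 123 and 130 CPM (counts scaled to a common library size) in the controls and at 117, 127 and 108 CPM in those libraries labelled *Mettl3*-deficient, which is -0.07 on the log2 scale (SE, the standard error, 0.10, adjusted p = 0.63), so the genotype label was not borne out by the gene's summed mRNA count. For erythroid cells of these mutants, the paper reports loss of *Mettl3* mRNA by qRT-PCR and of its protein, with a lower global m6A level. The sources used here do not give the floxed exons, and a count over the whole gene does not show whether those exons alone were lost. *Kit*, the gene of the receptor used in the sort, was at 544, 629 and 622 CPM in the controls and at 68.5, 53.1 and 44.0 CPM in the Kit-lo libraries. Of 11 late erythroid markers tested, 9 were called higher in the Kit-lo libraries, and all 11 were higher at an adjusted p under 0.05 by edgeR. The 11 had a median log2 fold change of 4.99. Their summed level was 2053 to 2291 CPM in the controls and 5941 to 7702 CPM in Kit-lo. The 8 CFU-E markers summed to 7009 to 7385 CPM and 3954 to 4018 CPM, with *Klf1* and *Epor* called higher, *Kit* and *Car1* lower and a median log2 fold change of 0.26, and the early progenitor markers to 191 to 216 CPM and 28.5 to 35.4 CPM, respectively. Macrophage markers summed to 8.69 to 13.7 CPM in the controls and 7.81 to 9.38 CPM in Kit-lo, granulocyte markers to 25.5 to 37.8 and 16.1 to 24 CPM, and megakaryocyte markers to 110 to 136 and 108 to 158 CPM. Mast cell markers reached at most 5.09 CPM, T and NK cell markers 3.45 CPM and B cell markers 1.89 CPM in any library. Of the markers tested, 1 of 5 for macrophages was lower, 1 of 4 for granulocytes was higher and 1 lower, and 2 of 5 for megakaryocytes were higher, and no listed marker in the table was at 0 in all libraries. The part of these markers in the results for the histone enzymes was not tested. In such bulk libraries, fewer cells of a type and less RNA per cell cannot be told apart.

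The enzymes changed in both directions. Of the 55 members tested in the RNA-seq, 7 were higher and 5 were lower in the Kit-lo libraries at a fold change of at least 1.5 and an adjusted p under 0.05. Of all 11979 genes tested, 12.1% were called higher and 9.83% lower, so the share of the members was near that of all genes. The libraries of the groups did not overlap for 28 of the 55 members, against 47.5% of all genes. The median log2 fold change was 0.06 over the members and 0.01 over all genes. Without control replicate 3, 4 members were called higher and 3 lower, and without Kit-lo replicate 1, 3 were called lower. When the difference was tested against a fold of 1.5 rather than 0 (edgeR's glmTreat), the calls that held were *Hdac11*, *Hdac5* and *Kmt2b* on the higher side and *Hdac7* and *Hdac2* on the lower side. The calls fell on deacetylases in both directions, on H3K4 methyltransferases upward and on *Ezh2* downward. None of the 7 sirtuins was called, which so few genes do not set apart from the shares of all genes.

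**Figure D1:**
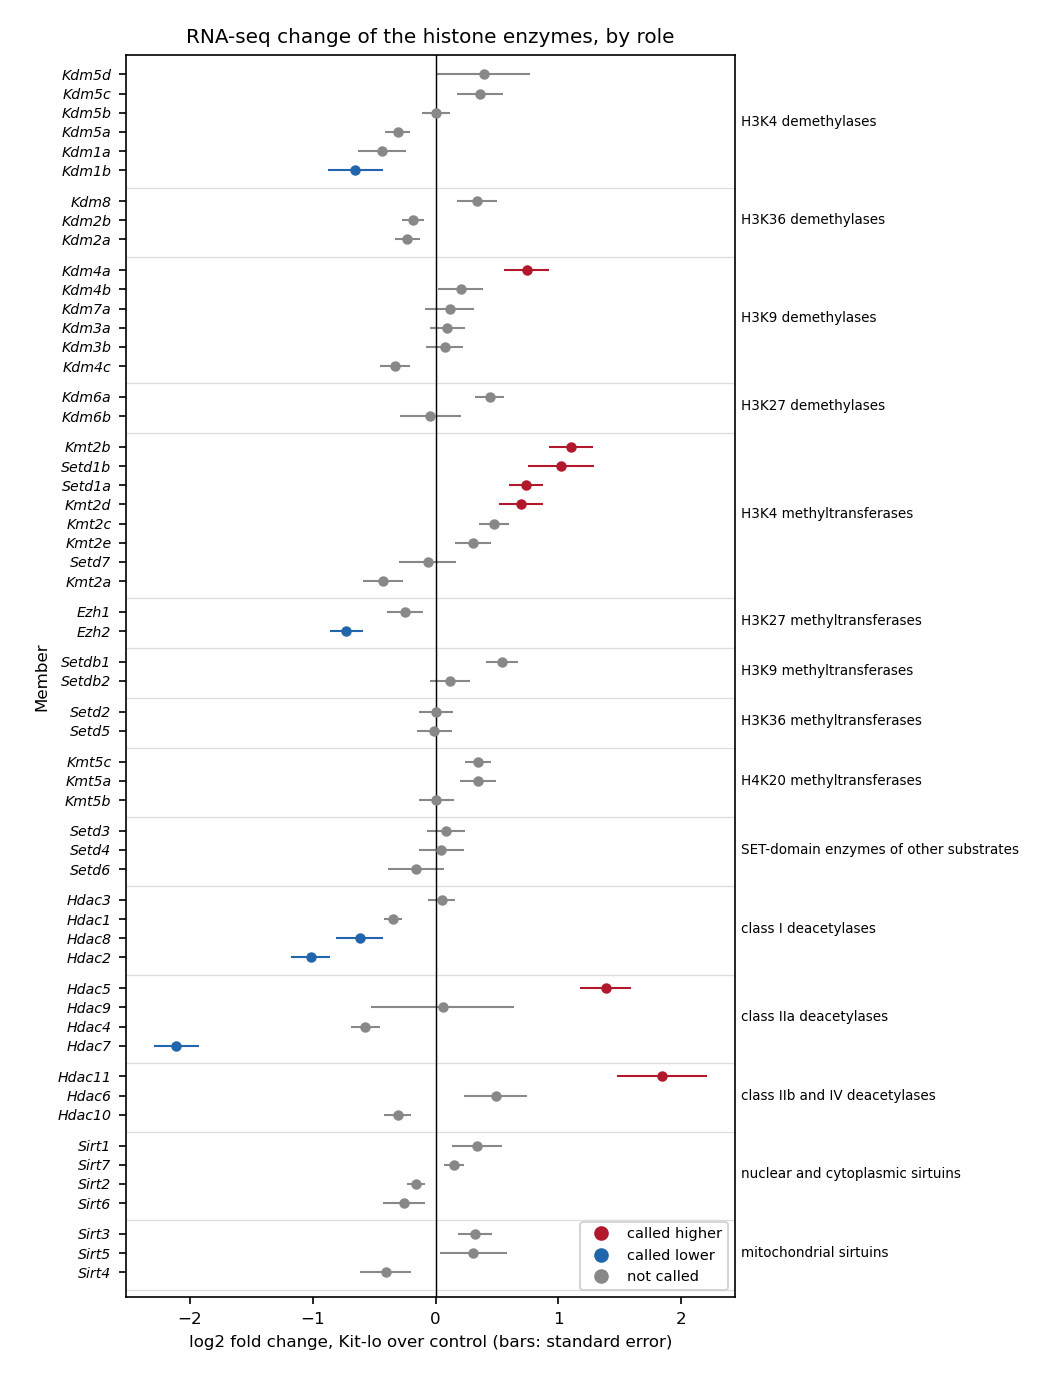
The log2 fold change of each of the 55 tested members in the RNA-seq (x axis, CFU-E Kit-lo over control, n = 3 each) is drawn by role (y axis), with bars of 1 standard error and called members in color. The points range from -2.11 for *Hdac7* to 1.84 for *Hdac11*, and 4 of the 8 H3K4 methyltransferases are called higher.

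Among the 11 zinc-dependent deacetylases, 2 were higher and 3 lower, against 12.1% and 9.83% of all genes. The largest fall was that of *Hdac7*, a class IIa deacetylase that acts in the nucleus as a transcriptional corepressor and is exported to the cytoplasm when phosphorylated. *Hdac7* (chromosome 15, 97792664 to 97844502, minus strand, GRCm38) was at 115, 109 and 103 CPM in the controls and at 33.7, 23.5 and 19.0 CPM in the Kit-lo libraries. Every Kit-lo library lay far below every control library, with means of 109 ± 5.93 and 25.4 ± 7.52 CPM (SD, n = 3 each). The difference was -2.11 on the log2 scale (SE 0.19, adjusted p = 2.6e-05 by edgeR). *Hdac7* passed from the most abundant class IIa member per kb of transcript, at 25.9 CPM per kb in the controls, to 6.01 CPM per kb.

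*Hdac5*, another class IIa deacetylase under the control of the same kind of export signal, went the opposite way. It was at 5.55, 4.4 and 5.73 CPM in the controls and at 14.2, 12.3 and 14.5 CPM in the Kit-lo libraries, without overlap (log2 fold change 1.38, SE 0.21, adjusted p = 6.7e-04). *Hdac4*, the third class IIa member expressed here, was at 76.4, 73.4 and 88.6 CPM and at 49.4, 59.6 and 51.5 CPM. Its log2 fold change of -0.57 (adjusted p = 0.0043) was below the fold threshold but passed it in 5 of 13 alternative analyses, at -0.63 without control replicate 2 for example, and 22.4% of its exonic bases lie opposite those of *Gm26720*. *Hdac9*, the remaining member of the class, was very low in both groups, at 0.42 to 1.56 CPM. Per kb, the class thus went from *Hdac7* at 25.9, *Hdac4* at 9.81 and *Hdac5* at 1.08 CPM in the controls to 6.01, 6.61 and 2.82 CPM in Kit-lo, and *Hdac7* no longer stood above *Hdac4*.

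*Hdac11*, the sole class IV deacetylase, which also removes fatty acyl groups, had the largest rise of any member. It was at 1.25, 1.03 and 1.2 CPM in the controls and at 5.14, 3.40 and 4.02 CPM in the Kit-lo libraries (log2 fold change 1.84, SE 0.37, adjusted p = 0.0033). Its level remained low in either group, and 17.9% of its exonic bases overlap *Gm14573* and *Gm44002* on the opposite strand. The class IIb enzymes were not called. *Hdac6*, the cytoplasmic tubulin deacetylase, had a log2 fold change of 0.49 (SE 0.26, adjusted p = 0.18), with overlapping libraries.

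Of the 4 class I deacetylases, 2 were lower and 0 higher, against 9.83% and 12.1% of all genes. Those other than *Hdac8* are the catalytic subunits of the SIN3, NuRD, CoREST and NCoR complexes. *Hdac2* (chromosome 10, 36974544 to 37001889, plus strand) was at 34.7, 47.4 and 47.2 CPM in the controls and at 23.0, 19.3 and 21.6 CPM in the Kit-lo libraries. The groups did not overlap, and the log2 fold change was -1.02 (SE 0.16, adjusted p = 8.0e-04). Its close paralog *Hdac1*, the most abundant zinc-dependent deacetylase per kb, was at 229, 228 and 235 CPM and at 181, 176 and 188 CPM, which is a smaller difference of -0.34 on the log2 scale (SE 0.07, adjusted p = 0.0054) below the fold threshold. *Hdac8*, a class I enzyme that acts on cohesin, was at 23.9, 20.5 and 30.2 CPM and at 13.5, 16.9 and 18.4 CPM (log2 fold change -0.62, adjusted p = 0.029). The *Hdac8* call was lost without control replicate 1 (adjusted p = 0.067) and without control replicate 3 (adjusted p = 0.14), among others. *Hdac3*, the enzyme of the NCoR complex, was at 65.7 to 75.3 CPM in the controls and 65.3 to 79.1 CPM in Kit-lo (log2 fold change 0.05, adjusted p = 0.77).

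**Figure D2:**
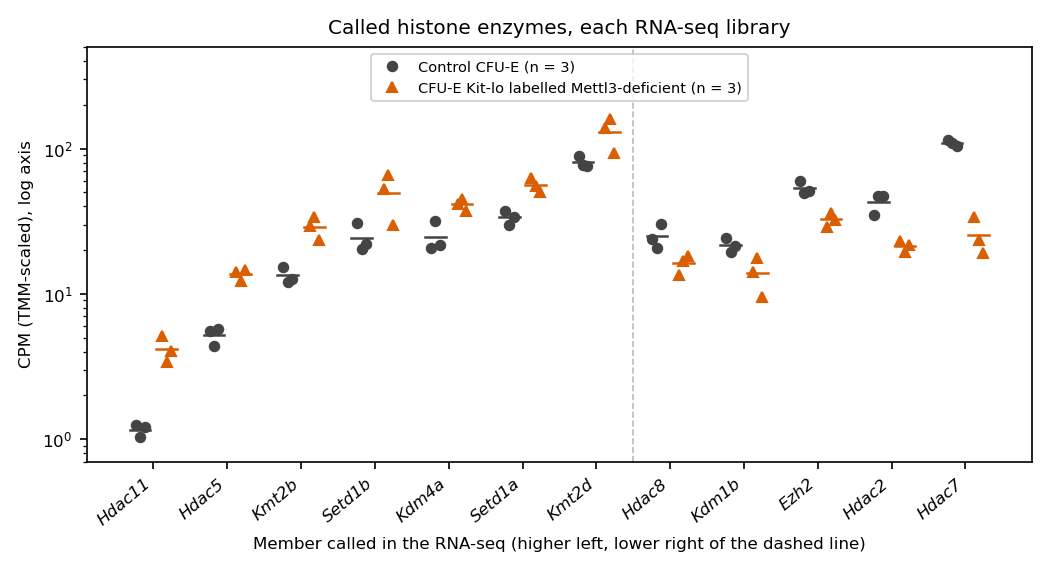
The CPM of each of the 12 called members (y axis, log scale) is shown for every RNA-seq library, as circles for control CFU-E and triangles for CFU-E Kit-lo, with horizontal lines at the group means. *Hdac7* falls from 103 to 115 CPM to 19.0 to 33.7 CPM, and the *Setd1b* groups are the only ones of the 12 that overlap.

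The promoters of 2 lowered and 2 raised deacetylases are shown because these genes carry the largest changes among the deacetylases. Each runs from 250 bases before to 50 bases after a start given by RefSeq on GRCm38.p6, read 5′ to 3′ along the gene. Capitals mark the GATA motif AGATAA, the GC box GGGCGG and the CCAAT box, each searched on both strands, so that the last 2 also appear as CCGCCC and ATTGG.
Hdac7, chr15:97831446-97831745, minus strand, one of 4 starts: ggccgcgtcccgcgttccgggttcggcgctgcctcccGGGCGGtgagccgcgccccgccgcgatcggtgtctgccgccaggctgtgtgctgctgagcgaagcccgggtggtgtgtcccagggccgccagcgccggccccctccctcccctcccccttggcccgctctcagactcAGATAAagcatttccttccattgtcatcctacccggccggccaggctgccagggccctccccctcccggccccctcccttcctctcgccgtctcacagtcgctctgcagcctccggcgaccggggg
Hdac2, chr10:36974294-36974593, plus strand: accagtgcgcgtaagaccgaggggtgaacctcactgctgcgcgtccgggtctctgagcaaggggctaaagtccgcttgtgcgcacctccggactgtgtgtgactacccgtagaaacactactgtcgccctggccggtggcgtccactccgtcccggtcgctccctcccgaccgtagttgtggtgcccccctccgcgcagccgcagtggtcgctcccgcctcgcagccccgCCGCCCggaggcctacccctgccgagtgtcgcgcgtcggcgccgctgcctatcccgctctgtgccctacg
Hdac5, chr11:102230123-102230422, minus strand: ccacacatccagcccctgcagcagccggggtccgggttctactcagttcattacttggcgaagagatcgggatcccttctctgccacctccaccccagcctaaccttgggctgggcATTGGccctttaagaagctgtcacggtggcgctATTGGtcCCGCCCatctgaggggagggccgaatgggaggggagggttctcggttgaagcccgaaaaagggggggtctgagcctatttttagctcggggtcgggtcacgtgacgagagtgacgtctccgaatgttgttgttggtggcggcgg
Hdac11, chr6:91156565-91156864, plus strand: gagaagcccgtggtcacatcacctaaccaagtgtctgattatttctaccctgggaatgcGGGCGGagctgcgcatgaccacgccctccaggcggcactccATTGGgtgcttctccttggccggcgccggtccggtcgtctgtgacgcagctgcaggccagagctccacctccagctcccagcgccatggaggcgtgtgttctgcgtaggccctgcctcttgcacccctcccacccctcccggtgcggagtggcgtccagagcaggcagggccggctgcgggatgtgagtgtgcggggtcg
The GATA motif, the core of the sequence bound by the erythroid factor Gata1 and by Gata2, was in 1 of the 4 windows, that of *Hdac7*. Of the 45 members with a promoter in the table, 6 held AGATAA in the first listed start (13.3%), namely *Hdac7*, *Kdm4c*, *Kdm5d*, *Kdm8*, *Setd5* and *Setdb1*, against 11.2% of all 32851 promoters. The GC box was in 57.8% of the members' windows and in 35.7% of all, and the CCAAT box in 44.4% and 37.4%. Over the 9175 genes tested in the RNA-seq that have a promoter in the table, the shares were 6.88% for the GATA motif, 63.1% for the GC box and 39.8% for the CCAAT box. These matches describe the letters in the window and not binding.

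The H3K4 methyltransferases held 4 of the 7 members called higher. Of the 8 members in this role, 4 were higher and 0 lower by edgeR, against 12.1% and 9.83% of all genes, with a median log2 fold change of 0.59. On the lower side 1 had an unadjusted p under 0.05, and DESeq2 called 0. All 4 belong to the COMPASS family, large enzymes that work with the shared subunits Wdr5, Ash2l, Rbbp5 and Dpy30. *Kmt2b*, which methylates H3K4 at promoters, had the largest difference, at 15.3, 12.1 and 12.7 CPM in the controls and 29.3, 33.7 and 23.4 CPM in the Kit-lo libraries (log2 fold change 1.10, SE 0.18, adjusted p = 0.0011). *Setd1a*, which encodes a main enzyme of H3K4 trimethylation, was at 37.3, 29.97 and 33.6 CPM and at 63.1, 55.2 and 49.9 CPM (log2 fold change 0.74, SE 0.13, adjusted p = 0.0021). The groups did not overlap for either gene, but 3523 of the 6795 exonic bases of *Setd1a* are shared with *Gm49388* on the same strand, so its count is uncertain.

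*Setd1b*, the paralog of *Setd1a*, was at 30.7, 20.3 and 21.9 CPM in the controls and at 52.6, 65.5 and 29.8 CPM in the Kit-lo libraries (log2 fold change 1.02, SE 0.27, adjusted p = 0.014). Kit-lo replicate 3 lay just below control replicate 1, and the call was lost without control replicate 2 (adjusted p = 0.063), control replicate 3 (adjusted p = 0.072) or Kit-lo replicate 2 (adjusted p = 0.059). *Kmt2d*, which monomethylates H3K4 at enhancers, was at 89.4, 77.4 and 75.6 CPM and at 139, 161 and 93.0 CPM (log2 fold change 0.69, SE 0.18, adjusted p = 0.012). Without control replicate 3 the adjusted p of *Kmt2d* was 0.064, and without Kit-lo replicate 2 its log2 fold change was 0.55, below the fold threshold. The count of H3K4 methyltransferases called higher was accordingly 2 without control replicate 3 and 2 without Kit-lo replicate 2.

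The remaining members of the role did not pass. *Kmt2c*, the paralog of *Kmt2d*, was higher below the fold threshold (log2 fold change 0.48, adjusted p = 0.011). *Kmt2e*, a family member with no established enzyme activity, had a log2 fold change of 0.31 (adjusted p = 0.15) and *Setd7* one of -0.06 (adjusted p = 0.86). *Kmt2a*, the leukemia-associated MLL gene, was at 84.2, 80.7 and 69.3 CPM in the controls and at 53.2, 74.1 and 47.1 CPM in Kit-lo, a log2 fold change of -0.42 (adjusted p = 0.071) whose sign was opposite to that of its closest paralog *Kmt2b*. Without Kit-lo replicate 2, *Kmt2a* was called lower (log2 fold change -0.61, adjusted p = 0.010). Over *Kmt2a*, *Kmt2b*, *Kmt2c*, *Kmt2d*, *Setd1a* and *Setd1b*, the median deviation of log2(CPM + 1) from the mean of the 6 libraries was 0.49 and 0.56 in Kit-lo replicates 1 and 2 and -0.03 in Kit-lo replicate 3. Kit-lo replicate 3 thus lay nearer to the controls, which were at -0.20, -0.45 and -0.39. Over all genes tested the same deviation ran from -0.02 to 0.02.

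*Ezh2*, the main catalytic subunit of Polycomb repressive complex 2 in dividing cells, was lower. It was at 60.2, 49.8 and 51.0 CPM in the controls and at 29.0, 36.1 and 32.4 CPM in the Kit-lo libraries, without overlap (log2 fold change -0.72, SE 0.13, adjusted p = 0.0022). *Ezh1*, the alternative subunit that prevails in resting cells, was at 34.1, 39.6 and 42.8 CPM and at 30.2, 37.8 and 30.2 CPM (log2 fold change -0.25, adjusted p = 0.22). Per kb, *Ezh2* stood at 19.3 and *Ezh1* at 9.23 CPM in the controls, and at 11.7 and 7.78 CPM in Kit-lo. The 9 other PRC2 genes tested included 0 called by edgeR and 0 by DESeq2, against 12.1% higher and 9.83% lower of all genes by edgeR. At an unadjusted p under 0.05 by edgeR, 1 was higher and 3 lower, and the median log2 fold change was -0.18.

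The other methyltransferases were not called. *Setdb1*, which trimethylates H3K9 and silences retroelements, was at 173, 158 and 160 CPM in the controls and at 282, 241 and 189 CPM in Kit-lo (log2 fold change 0.54, adjusted p = 0.0098), below the fold threshold although the groups did not overlap. *Kmt5a*, the H4K20 monomethyltransferase, was at 31.2, 23.8 and 25.8 CPM and at 37.8, 32.4 and 32.3 CPM (log2 fold change 0.34, adjusted p = 0.10), and *Kmt5c*, which adds further methyl groups to H4K20, had a log2 fold change of 0.35 (adjusted p = 0.028). *Setd2*, which trimethylates H3K36, was at 62.1 to 70.8 CPM in the controls and 58.8 to 82.0 CPM in Kit-lo (log2 fold change 0.00, adjusted p = 0.99).

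Of the 17 demethylases tested, 1 was higher and 1 lower, against 12.1% and 9.83% of all genes. *Kdm4a*, which removes methyl groups from H3K9 and H3K36, was at 20.7, 31.9 and 21.6 CPM in the controls and at 41.5, 45.2 and 37.2 CPM in the Kit-lo libraries (log2 fold change 0.74, SE 0.18, adjusted p = 0.0097). The groups did not overlap, although without control replicate 3 the adjusted p was 0.056. *Kdm1b*, an H3K4 demethylase, was at 24.3, 19.4 and 21.4 CPM and at 14.2, 17.7 and 9.49 CPM (log2 fold change -0.65, SE 0.22, adjusted p = 0.047). That call was lost in 6 of 13 alternative analyses, among them without control replicate 1 (adjusted p = 0.16), and 9.19% of its exonic bases lie opposite *Dek*.

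*Kdm1a*, the LSD1 demethylase of the CoREST complex that is needed for erythroid differentiation, was at 36.6, 31.7 and 46.2 CPM in the controls and at 27.6, 22.2 and 35.0 CPM in Kit-lo. The groups overlapped (log2 fold change -0.43, SE 0.19, adjusted p = 0.12), and the gene was called lower when Kit-lo replicate 3 was left out (adjusted p = 0.033). *Kdm6a*, the X-linked H3K27 demethylase, was at 68.2, 61.8 and 72.3 CPM and at 93.0, 103 and 78.9 CPM (log2 fold change 0.44, adjusted p = 0.017), below the fold threshold. *Kdm5a*, an H3K4 demethylase, differed by -0.31 on the log2 scale (adjusted p = 0.037), also below it. *Kdm4d*, a testis-associated member of the *Kdm4* family, was the single member that was not tested, with 12, 0 and 1 counts in the controls and 6, 10 and 6 counts in the Kit-lo libraries, and it was not in the m6A table.

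*Kdm5c* and *Kdm5d*, the X-linked and Y-linked forms of an H3K4 demethylase, were not called. *Kdm5c* was at 75.9, 65.2 and 81.5 CPM in the controls and at 119, 99.4 and 67.0 CPM in Kit-lo (log2 fold change 0.36, adjusted p = 0.17). *Kdm5d* had 38 to 67 counts in the controls and 55 to 106 counts in Kit-lo (log2 fold change 0.39, adjusted p = 0.47), which is 2.39% to 8.26% of the *Kdm5c* count. The other Y-linked genes of the table were lower still in these libraries, with 4 to 13 counts for *Ddx3y*, 0 to 9 for *Eif2s3y* and 1 to 13 for *Uty*. The annotated *Kdm5d* transcript shares 5 of its 7907 words of 31 bases with that of *Kdm5c*. How many reads of *Kdm5d* come from other loci was not tested.

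The sirtuins use NAD to remove acyl groups. By edgeR 0 of the 7 were called in either direction, against 12.1% higher and 9.83% lower of all genes. At an unadjusted p under 0.05 by edgeR, 1 was higher and 1 lower, and DESeq2 called 0. Their log2 fold changes ran from -0.41 for mitochondrial *Sirt4* to 0.34 for nuclear *Sirt1*. *Sirt2* and *Sirt7*, the abundant members at 116 and 67.9 CPM per kb in the controls, had log2 fold changes of -0.16 and 0.15 (adjusted p = 0.11 and 0.20).

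The genes of the partner proteins were called in both directions. Of 89 partners tested in the RNA-seq, 4 were higher and 7 lower, against 12.1% and 9.83% of all genes, with a median log2 fold change of -0.03. Those higher were *Pagr1a*, a subunit specific to the *Kmt2c* and *Kmt2d* complexes, *Chd3*, a remodeler of the NuRD complex, the demethylase *Riox1*, and the acetyltransferase *Ep300*. *Ep300*, which acetylates H3K27 at enhancers, was at 32.2, 34.3 and 33.8 CPM in the controls and at 69.3, 64.2 and 52.6 CPM in the Kit-lo libraries (log2 fold change 0.89, SE 0.13, adjusted p = 5.3e-04). *Pagr1a* differed by 1.59 (adjusted p = 0.0022) on the log2 scale, *Riox1* by 1.33 (adjusted p = 5.3e-04) and *Chd3* by 1.22 (adjusted p = 0.0055).

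Those lower were the CpG-binding COMPASS subunit *Cxxc1*, the CoREST subunit *Zmym3*, the NuRD subunit *Mta2*, the NCoR subunit *Tbl1xr1*, the methyltransferases *Smyd2* and *Smyd3*, and the H4K16 acetyltransferase *Kat8*. *Cxxc1*, which brings Setd1a and Setd1b to CpG islands, was at 92.1, 86.3 and 95.8 CPM in the controls and at 57.3, 54.7 and 43.7 CPM in Kit-lo (log2 fold change -0.82, adjusted p = 6.2e-04). Its direction was thus opposite to that of both enzymes. *Mta2* was at 683, 636 and 653 CPM and at 423, 438 and 440 CPM, a log2 fold change of -0.60 (adjusted p = 1.3e-04) that was below the fold threshold without control replicate 1, without Kit-lo replicate 2 and with library size only. *Tbl1xr1* differed by -0.90 and *Smyd3* by -1.02 on the log2 scale. *Smyd2* differed by -0.69, *Kat8* by -0.66 and *Zmym3* by -0.61, and these last 3 calls were each lost in at least 1 alternative.

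The called members differed in base composition, which was not part of the rule. The median GC content of the annotated transcript was 58.4% for the 7 higher members, 44.4% for the 5 lower ones and 49.6% for all genes tested. Among the 15 members of at least 55% GC, 6 were called higher and 1, *Hdac7*, lower. The 6 were *Hdac5*, *Hdac11* and all the called H3K4 methyltransferases, *Kmt2b*, *Kmt2d*, *Setd1a* and *Setd1b*. Of all genes of at least 55% GC, 19.9% were called higher and 8.06% lower, against 6.63% and 11.2% of genes below 45% GC. The calls of all genes thus also varied with GC content. Over the transcripts of at least 55% GC, the median deviation of log2(CPM + 1) from the mean of the 6 libraries was -0.04, -0.06 and -0.08 in the controls and 0.10, 0.07 and 0.06 in Kit-lo. The part of this shift in the calls of the members was not tested. Transcript length went with the change only weakly among the 55 members (Pearson's r = 0.16, Spearman's rho = 0.17, a description over genes that share libraries).

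The m6A experiment asked which of these mRNAs were recovered by an antibody against m6A in control CFU-E cells. Of the 55 members tested, 9 were higher in IP than in input and 4 were lower at an adjusted p under 0.05, against 7.9% and 7.86% of all 11447 genes. Those higher were *Kdm6b*, *Kmt2a*, *Setd2*, *Kmt2d*, *Kdm2a*, *Hdac4*, *Kdm5a*, *Sirt1* and *Kdm2b*, and those lower were *Hdac2*, *Setd6*, *Setd5* and *Hdac1*. The calls depended on single libraries. Without input replicate 1, 1 member was called higher and 2 lower, and without IP replicate 1, 6 were higher and 2 lower. *Setd2* on the higher side and *Hdac2* and *Setd6* on the lower side were called in all 11 alternative analyses.

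**Figure D3:**
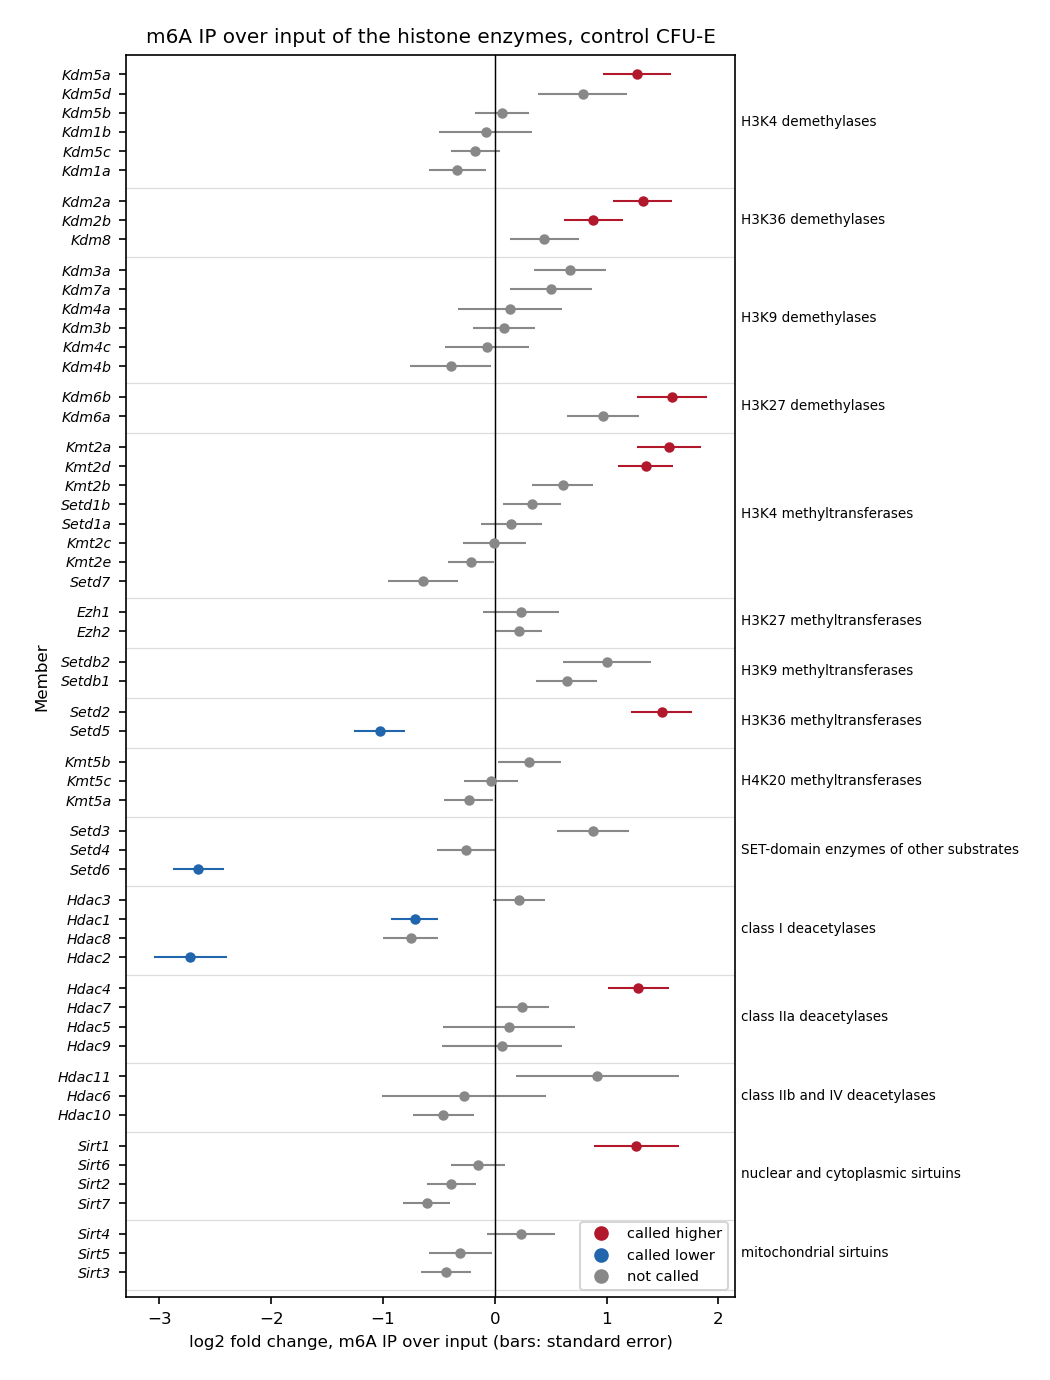
The log2 fold change of m6A IP over input in control CFU-E (x axis, n = 2 each) is drawn for the 55 tested members by role (y axis), with bars of 1 standard error and called members in color. The points range from -2.72 for *Hdac2* to 1.59 for *Kdm6b*.

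The sequence around the first GGACT after the stop codon, a motif that Mettl3 favors, is shown for 3 mRNAs higher and 3 lower in IP. Each line gives the motif in capitals with 10 bases on either side, from the annotated transcript on GRCm38.
Kmt2a, chr9:44807827-44807851, minus strand: ccatgctgaaGGACTtcccagcacc
Kmt2d, chr15:98834189-98834213, minus strand: atatgggccgGGACTacccagaagt
Kdm5a, chr6:120439291-120439315, plus strand: aaagatgaatGGACTtcagaaaaag
Hdac2, chr10:36994619-36994643, plus strand: cctcctgttcGGACTtagtgtcctc
Setd5, chr6:113152137-113152161, plus strand: gatttgggatGGACTgggctccagc
Setd6, chr8:95718832-95718856, plus strand: gggaaatttgGGACTtttgctattt
The 3′ UTR of *Kmt2a* held 7 such motifs in 4547 bases, that of *Kdm5a* 5 in 5381 and that of *Kmt2d* 2 in 2828. Those of *Setd5*, *Hdac2* and *Setd6* held 2 in 1965 bases, 1 in 2153 and 1 in 229, so the counts are over unlike lengths. All 6 hold the motif there, as do *Hdac4* (5 motifs), *Kdm2a* (4) and *Sirt1* (1), which were higher in IP and are not shown. Their first motif lay 1927, 2234 and 856 bases after the stop codon. That distance was 61, 297 and 108 bases in *Kmt2a*, *Kmt2d* and *Kdm5a*, and 671, 677 and 61 bases in *Hdac2*, *Setd5* and *Setd6*. The 3′ UTRs of *Kdm6b*, *Setd2* and *Kdm2b*, also higher in IP, and of *Hdac1*, lower in IP, held 0. The table counts reads per gene, so it does not show at which of these positions an mRNA was methylated.

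Among the H3K4 methyltransferases, *Kmt2d* and *Kmt2a* were higher in IP. *Kmt2d* was at 139 and 208 CPM in input and at 432 and 455 CPM in IP (log2 fold change 1.35, SE 0.25, adjusted p = 0.0051). *Kmt2a* was at 3.97 and 4.55 CPM in input and at 12.7 and 12.4 CPM in IP (log2 fold change 1.56, SE 0.29, adjusted p = 0.0053), a similar fold at a far lower level. Their paralogs *Kmt2b* and *Kmt2c* were not called, with log2 fold changes of 0.61 (adjusted p = 0.15) and -0.00 (adjusted p = 0.99).

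*Setd2* was at 6.52 and 5.56 CPM in input and at 16.1 and 18 CPM in IP (log2 fold change 1.49, SE 0.28, adjusted p = 0.0054). Setd2 and its product H3K36 trimethylation are known to guide the m6A writer complex to transcribed genes. *Setd5*, the other gene assigned to this role, went the opposite way, at 61.5 and 57.3 CPM in input and 27.9 and 30.4 CPM in IP (log2 fold change -1.03, SE 0.23, adjusted p = 0.014). It was not called without input replicate 1 (adjusted p = 0.10) or IP replicate 1 (adjusted p = 0.054).

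Of the 17 demethylases, 4 were higher in IP and 0 lower by edgeR, against 7.9% and 7.86% of all genes. On the lower side there were also 0 at an unadjusted p under 0.05 by edgeR and 0 by DESeq2. *Kdm6b*, an inducible H3K27 demethylase, had the highest enrichment, at 26.8 and 55.1 CPM in input and 123 and 123 CPM in IP (log2 fold change 1.59, SE 0.31, adjusted p = 0.0080). *Kdm2a* and *Kdm2b*, H3K36 demethylases with a CpG-binding domain, were also higher. *Kdm2a* was at 9.96 and 12 CPM in input and 30.5 and 24.2 CPM in IP (log2 fold change 1.32, adjusted p = 0.0085). *Kdm2b* was at 13.4 and 11.2 CPM in input and 25.2 and 20.3 CPM in IP (log2 fold change 0.88, adjusted p = 0.047). *Kdm5a* was at 9.61 and 11.7 CPM and at 32.2 and 19.2 CPM (log2 fold change 1.27, adjusted p = 0.020). All 4 calls were lost without input replicate 1, at adjusted p of 0.076 for *Kdm6b*, 0.10 for *Kdm2a*, 0.17 for *Kdm2b* and 0.16 for *Kdm5a*. *Kdm6a*, the paralog of *Kdm6b*, had a log2 fold change of 0.97 that did not pass (adjusted p = 0.068).

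The deacetylases held both kinds. *Hdac2* was the most depleted member, at 222 and 118 CPM in input and 30.3 and 21.2 CPM in IP (log2 fold change -2.72, SE 0.33, adjusted p = 3.8e-04), and both IP libraries lay far below both input libraries, which themselves differed. *Hdac1* was at 243 and 251 CPM in input and 144 and 158 CPM in IP, a smaller difference of -0.72 (SE 0.21, adjusted p = 0.042) that was lost in 5 of 11 alternatives. *Hdac4* was the only zinc-dependent deacetylase higher in IP, at 6.92 and 8.94 CPM in input and 20.3 and 18.2 CPM in IP (log2 fold change 1.28, adjusted p = 0.012, and 0.14 without input replicate 1). *Hdac3* had a log2 fold change of 0.22 (adjusted p = 0.56). *Hdac5* and *Hdac6* could hardly be judged, at 0.53 to 0.91 CPM and 0.30 to 2.45 CPM over the 4 libraries.

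The lowest adjusted p of any member was that of *Setd6*, a methyltransferase known for non-histone substrates such as a subunit of NF-kappaB. It was at 182 and 171 CPM in input and at 30.7 and 25.4 CPM in IP (log2 fold change -2.65, SE 0.23, adjusted p = 4.0e-05). In the Smart-seq2 libraries of control CFU-E the same gene was at 8.42 to 10.4 CPM, although levels in the oligo-dT primed 3′ libraries and in the full-length libraries are not on one scale. *Sirt1* was the only sirtuin called, at 1.72 and 2.02 CPM in input and 5.27 and 3.67 CPM in IP (log2 fold change 1.27, adjusted p = 0.047), and the call was lost in 4 of 11 alternatives. Among the members named by function, *Ezh2* (0.21, adjusted p = 0.53), *Ezh1* (0.24, adjusted p = 0.67), *Kmt5a* (-0.23, adjusted p = 0.50), *Kdm1a* (-0.33, adjusted p = 0.40), *Kdm5c* (-0.17, adjusted p = 0.63) and *Kdm5d* (0.79, adjusted p = 0.20) were not called on the log2 scale of IP over input.

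The members higher in IP had long transcripts. Of the 11 members with annotated transcripts of 8000 bases or more, 6 were higher in IP and none lower, and of the 7 under 2000 bases none was higher and 1 was lower. Among all genes, 17.7% of those of 8000 bases or more and 2.14% of those under 2000 were called higher, so the calls of all genes followed length as well. Over the 55 members the log2 fold change of IP over input correlated with log2 transcript length (r = 0.49, rho = 0.51) and not visibly with the density of GGACT per kb (r = 0.05, rho = 0.07). It also correlated with the number of GGACT per transcript on a log2 scale (r = 0.40, rho = 0.43), which was not separated from length. These are descriptions across genes that share 4 libraries. The median 3′ UTR was 2828 bases for the 9 higher members and 1235 bases for the 4 lower ones.

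**Figure D4:**
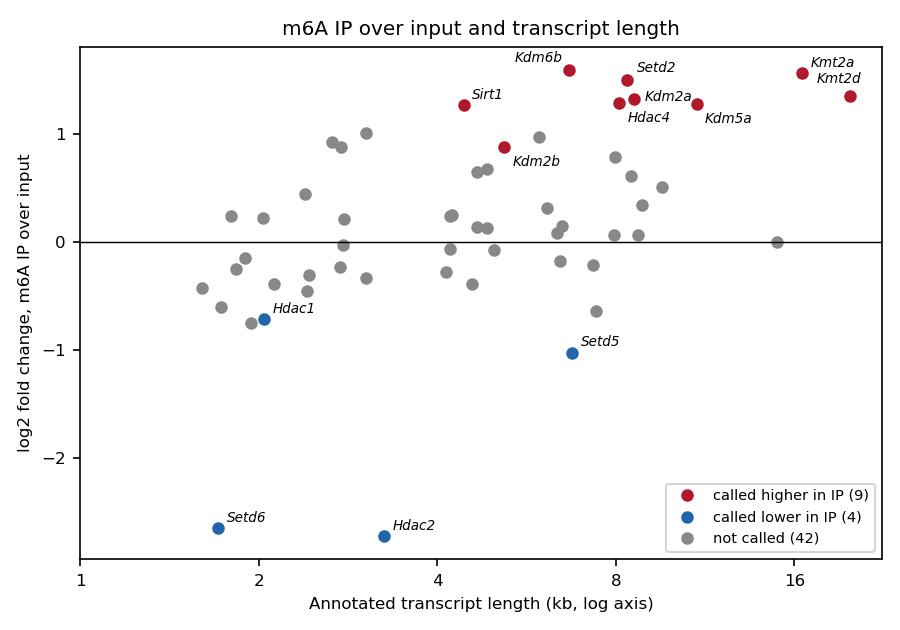
The log2 fold change of m6A IP over input (y axis) is plotted against annotated transcript length in kb (x axis, log scale) for the 55 members, with called members in color and named. Of the 11 members of at least 8 kb, 6 are called higher in IP, whereas the 2 most depleted members, *Hdac2* and *Setd6*, have transcripts under 4 kb.

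Among the partners, 11 of 91 tested were higher in IP and 15 lower, against 7.9% and 7.86% of all genes. Those higher were *Wdr82*, *Hcfc1*, *Mta1*, *Mta2*, *Gatad2b*, *Sap18*, *Brms1l*, *Nsd3*, *Ash1l*, *Jmjd1c* and *Crebbp*. Of these, the acetyltransferase *Crebbp* had the largest log2 fold change, 1.64 (adjusted p = 0.0048). The SIN3 complex, in which Hdac1 and Hdac2 act, had 6 of 13 subunits lower in IP, which were *Sin3b*, *Sap30*, *Sap130*, *Suds3*, *Ing1* and *Ing2*. Their log2 fold changes ran from -3.89 for *Ing2* to -0.82 for *Sin3b*, and the count was 4 to 8 across the alternatives. Another 2 of the 13, *Sap18* and *Brms1l*, were higher in IP, a count that was 0 to 2 across the alternatives. The other partners lower in IP included *Ash2l*, *Psip1*, *Mbd3*, *Cdk2ap1*, *Ncor1*, *Suv39h2*, *Smyd2* and *Riox1*. Without input replicate 1, 1 partner was higher and 11 were lower.

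Both readouts met in few members. Of the 9 members higher in IP, 1, *Kmt2d*, was higher in the Kit-lo libraries and none was lower. The *Kmt2d* call held in 11 of 13 alternatives of the RNA-seq and in 10 of 11 of the IP. Of the 4 lower in IP, none was higher and 1, *Hdac2*, was lower. Of the 42 members not called in IP, 6 were higher and 4 lower in the RNA-seq. Among all genes tested in both, 10.3% of those higher in IP were higher and 10.2% lower in the Kit-lo libraries, 17.3% and 9.96% of those lower in IP, and 12.1% and 10.5% of those not called in IP. *Hdac7*, the member with the largest fall, was at 30.3 and 24.2 CPM in input and at 33.3 and 31.3 CPM in IP, a log2 fold change of 0.24 (adjusted p = 0.53). Over the 55 members the log2 fold changes of the 2 experiments correlated with r = 0.21 and rho = 0.17, given as a description. The IP was done in control cells alone, so these data do not show how m6A on any member changed in the mutant.

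**Figure D5:**
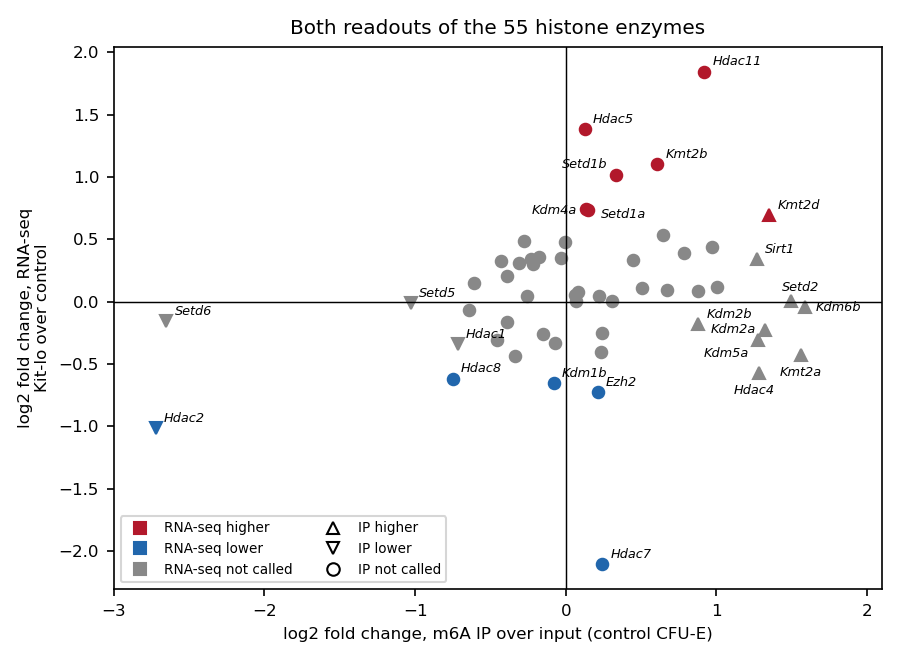
The log2 fold change of the RNA-seq (y axis, CFU-E Kit-lo over control) is plotted against that of m6A IP over input in control CFU-E (x axis) for the 55 members, with color for the RNA-seq call and marker shape for the IP call. *Kmt2d* is the only member called higher in both, and neither of its calls held in every alternative. *Hdac2* is the only one called lower in both.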

How the data were processed

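RNA-seq was done on control CFU-E (n = 3) and CFU-E Kit-lo libraries labelled *Mettl3*-deficient (n = 3), and SLIM-seq on m6A IP (n = 2) and input (n = 2) of control CFU-E. Of 16 samples mapped from their titles, 10 had a column of values, and the 6 ProE samples were not analysed here. The authors made Smart-seq2 libraries from 1 ng of total RNA, filtered reads with fastp 0.23.4, quantified transcripts with kallisto 0.48.0 on mm10, summed them to genes with tximport and deposited estimated counts per gene, unnormalized and already whole numbers. The submitters' notes also list the later mouse build GRCm39, and coordinates here are from GENCODE M21 and RefSeq on GRCm38, which is mm10. SLIM-seq reads start from an oligo-dT primer with a molecular identifier, and the use of this identifier and of strand in the counting is not given in the sources used here.

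edgeR 4.0.16 in R 4.3.3 was used with TMM, filterByExpr and the quasi-likelihood test, with one fit per experiment over all genes and Benjamini-Hochberg adjustment over the 11979 or 11447 genes tested. The SE is the absolute log2 fold change over the square root of F. RNA-seq calls needed a fold change of at least 1.5 and an adjusted p under 0.05, and IP calls an adjusted p under 0.05. The paper's DESeq2 was an alternative (version 1.42.0), and its TPM filters were not used. The biological coefficient of variation was 19.1% and 21.9%. No 2 libraries held identical values. Scripts were tested on simulated counts.

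The members, their roles, the partner and marker lists and the alternatives were chosen with earlier results of these data known. Values in every library are given for each called member of the RNA-seq and for the called members with the 6 largest and 6 smallest IP enrichments, *Kdm1a*, *Hdac1*, *Hdac2*, *Hdac3*, *Hdac5*, *Hdac6*, *Ezh1*, *Ezh2*, *Kmt5a*, *Setd2*, *Kdm5c*, *Kdm5d* and *Kdm6a* are named in any case, and partners are named when called, except for a gene that is not reported here. Other genes named (*Kmt2e*, *Setd7*, the sirtuins and paralogs of called members) were picked after their values were seen. Alternatives were other normalizations, low-count filters, thresholds, DESeq2, a replicate block, leaving out each library, and, chosen after seeing the data, the sum of *Kdm5c* and *Kdm5d*.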

Additional observations from a re-analysis of the deposited data

How the results depend on the processing

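In the RNA-seq, members called lower numbered 3 with library size only, and a test against a fold of 1.5 (glmTreat) called 3 members higher and 2 lower and 665 and 482 of all genes. Without a fold threshold 11 members were higher and 8 lower, and 2024 of all genes were lower. With each library left out in turn, members called higher ran from 4 (without control replicate 3) to 9 and lower from 3 (without control replicate 3 or Kit-lo replicate 1) to 6, against 1201 to 1513 and 979 to 1247 of all genes. The calls of *Hdac7*, *Hdac2*, *Hdac5*, *Hdac11* and *Kmt2b* held under glmTreat and in the 13 alternatives that kept the threshold, those of *Ezh2* and *Setd1a* in the 13 but not under glmTreat, and the other 5 were lost under glmTreat and in at least 1 of the 13. DESeq2, DESeq2's size factors in edgeR and the filters on low counts left every count of members and of all genes within 1.5 times. With library size only, 1587 genes were higher and 1015 lower, and with the upper quartile 1330 and 1293. Leaving out a library moved *Hdac3* between -0.020 and 0.14 on the log2 scale, *Setd2* between -0.13 and 0.10, *Setd7* between -0.16 and 0.051 and *Mettl3* between -0.12 and 0.0027. *Setd2* was also at -0.035 with the upper quartile, -0.015 without a filter and -0.010 with the replicate block, so these uncalled genes have no settled direction.

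In IP over input, the upper quartile called 1451 genes higher and 754 lower, and library size only 934 and 608. Those scalings set the median of all genes at 0.18 and 0.21, against 0.06 with TMM. With each library left out, members higher ran from 1 (without input replicate 1) to 12 and lower from 2 (without input replicate 1 or IP replicate 1) to 4. The count over all genes ran from 164 to 1358 higher and from 427 to 968 lower, both lowest without input replicate 1, and it was 571 higher without input replicate 2 and 433 without IP replicate 1. Such fits leave 1 sample in a group, which is assumed to vary like the other. *Ezh1* moved between -0.14 and 0.51, *Hdac5* between -0.27 and 0.48 and *Hdac6* between -2.54 and 0.47, at very low counts for the last 2.

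With the replicate block in the m6A fit, 1783 genes were higher and 1755 lower, with 12 and 6 members. The numbers are not stated to pair IP with input, and the correlation of same-numbered deviations was 0.205 for either pair, 1 value by construction. In the RNA-seq the same check gave 0.034, -0.017 and -0.072, against -0.105 to 0.12 between samples of unlike number. Not every sample correlated best with its own, so the check did not show pairing, but it cannot settle how the samples were processed. The block left the RNA-seq counts within 1.5 times. With *Kdm5c* and *Kdm5d* summed, neither experiment called the sum. The cause of these changes was not tested. Depth limits *Hdac9*, *Hdac11*, *Kdm5d* and *Kdm4d* in the RNA-seq and *Hdac5*, *Hdac6*, *Hdac9*, *Hdac11* and *Kdm4a* in the m6A libraries.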

Other observations

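Compared per kb of annotated transcript, the most abundant members of control CFU-E were *Sirt2*, a mainly cytoplasmic deacetylase of tubulin, at 116 CPM per kb and *Hdac1* at 113 CPM per kb. The nucleolar sirtuin *Sirt7* followed at 67.9, then *Kdm2b* at 36.8, *Setdb1* at 35.1 and *Hdac3* at 34.6 CPM per kb. In the Kit-lo libraries the first members were again *Sirt2* (103), *Hdac1* (89.3) and *Sirt7* (75.4), followed by *Setdb1* (51.0), *Hdac3* (35.8), and *Kmt5c* and *Kdm2b* (both 32.5). At the other end stood *Hdac9* at 0.13 and *Kdm5d* at 0.37 CPM per kb in the controls. Differences between neighbors in this order were not tested, and the values rest on the annotated length of 1 transcript per gene.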
